A study of Mustela putorius furo with 10 samples.

Results

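The pyruvate dehydrogenase complex and the enzymes that switch it off and on were followed in peripheral blood mononuclear cells (PBMC) of cold-exposed ferrets. The set held 10 genes, namely the 4 pyruvate dehydrogenase kinases PDK1, PDK2, PDK3 and PDK4, the phosphatase PDP1, and the complex genes PDHA1, PDHB, PDHX, DLAT and DLD. They were listed by symbol and found on the array through the RefSeq ferret gene that carries the accession of each target sequence. All 10 were well above background in at least 4 arrays and were among the 26303 genes tested.

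Male ferrets aged 3 months were kept at 22 °C (control) or at 4 °C for 1 week (cold), with 7 animals assigned to each group. PBMC, obtained on a Ficoll gradient, gave 6 control and 4 cold arrays, with 1 ferret per array. The cold ferrets were housed individually, and how the control ferrets were housed is not given in the sources used here, so that it is not known whether housing differed between the groups. Ferret RNA was labelled with the green dye Cy3, and a reference pool with the red dye Cy5 was hybridised to every array, so that each value below is the log2 ratio of Cy3 to Cy5, and a change is the cold mean less the control mean of that ratio.

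The pyruvate dehydrogenase complex sits in the mitochondrial matrix and turns pyruvate, the end product of glycolysis, into acetyl-CoA for the citric acid cycle. The kinases phosphorylate its first enzyme and so inactivate it, while the phosphatases remove the phosphate and restore activity. PDK1 and PDK3 are known as targets of the hypoxia factor HIF-1, and PDK4 as the kinase induced by fasting and fatty acids in muscle, liver and fat.

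Among the 10 genes, PDK1 stood lowest against its controls for the spread between ferrets. Its ratio in the cold group was 61.0% of that in the control group, and no cold value reached any control value. None of the 10 genes passed an adjusted p of 0.05 in limma, and neither did any of the 26303 genes tested (0%), the lowest adjusted p being 0.0576, although 24.7% of all genes had an unadjusted p under 0.05. At the unadjusted limma threshold of 0.01, 1 of the 10 genes was called, PDK1, lower in cold, against 8.64% of all genes, 3.43% lower and 5.21% higher in cold. Likewise 1 of the 10 genes, PDK1 again, had groups that did not overlap, against 5.22% of all genes, 2.15% lower and 3.07% higher in cold. The cold mean was lower for 6 of the 10 genes and higher for 4, against 52.0% of all genes with a lower mean, and the median change of the 10 was -0.18 against -0.01 over all genes. This split depended on the scaling, with 4 lower and 6 higher under the scanner software's processed signals (median 0.05), 1 and 9 in Cy3 alone (0.16), 9 and 1 under median centring (-0.70, all genes -0.43) and 8 and 2 in the authors' deposited log2 values (-0.25). The shares called are near the background, and the values that follow are those of single genes.

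**Figure D1:**
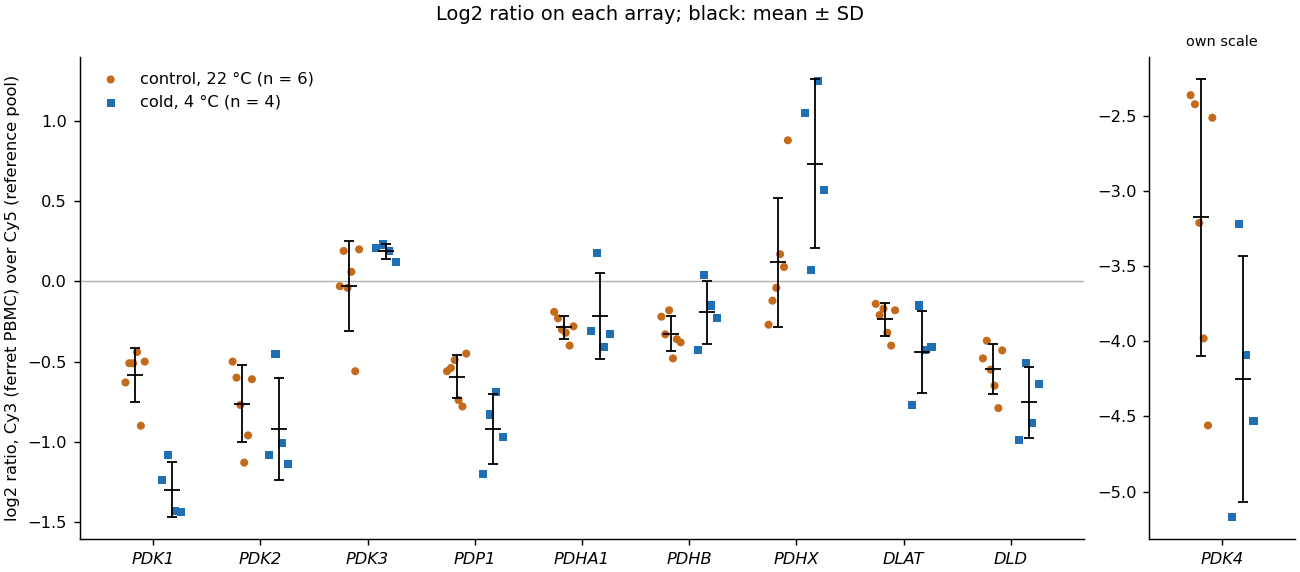
Log2 ratio of Cy3 (ferret PBMC) to Cy5 (reference pool) of the 10 genes on each array, with control ferrets as circles (n = 6), cold ferrets as squares (n = 4), and the mean ± SD in black; PDK4 has its own scale. The 4 cold values of PDK1, from -1.44 to -1.08, lie below all 6 control values, which run from -0.90 to -0.44, while the groups of the other 9 genes overlap.

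Of the kinases, PDK1 had log2 ratios of -0.63, -0.51, -0.51, -0.44, -0.90 and -0.50 in control replicates 1 to 6, and of -1.24, -1.08, -1.43 and -1.44 in cold replicates 1 to 4. Control replicate 5 was the lowest control and cold replicate 2 the highest cold ferret, and a gap of 0.18 still lay between them. Control ferrets averaged -0.58 ± 0.17 (SD, n = 6) and cold ferrets -1.30 ± 0.17 (SD, n = 4), a change of -0.71 with a standard error of 0.11 and a 95% interval from -0.95 to -0.47. The unadjusted limma p was 4.1e-05 and the adjusted p 0.0576, and only 12 genes had a lower p. The exact two-sided permutation test over the 210 splits of the arrays gave p = 0.00476, the smallest it can give. The change itself was less rare, since 2.59% of all genes had a change at or below that of PDK1. Leaving out control replicate 5 gave a change of -0.78 with an adjusted limma p of 0.0255, and leaving out cold replicate 2 gave -0.79 with an adjusted limma p of 0.0122. Without any 1 of the other 8 arrays the adjusted limma p lay between 0.0703 and 0.145, the latter without cold replicate 3.

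The array measured PDK1 with 4 probes of 1 target sequence, each well above background on all 10 arrays. All 4 probes had a lower cold mean, by changes from -0.85 to -0.59, and for 2 of the 4 the groups did not overlap. The position of an array on its slide could be followed for this gene, since both positions held both groups. In position 1, with 4 control and 2 cold arrays, the change was -0.64, and in position 2, with 2 arrays of each group, it was -0.73, and with the position as a block it was -0.68. The value in position 2 had a limma p of 0.0113 when fitted alone, and was thus no longer past 0.01.

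The lower PDK1 ratio was found in the ferret channel. In Cy3 alone, log2 intensities of PDK1 were 10.91, 10.84, 10.96, 11.24, 10.75 and 10.62 in control replicates 1 to 6, and 10.61, 10.29, 10.27 and 10.22 in cold replicates 1 to 4. The groups did not overlap, although cold replicate 1 came within 0.01 of control replicate 6. The change in Cy3 was -0.54 (standard error 0.12, 95% interval -0.81 to -0.27), with a limma p of 0.00112 and an adjusted p of 0.0469. In the reference channel the change was 0.11, with a 95% interval from -0.03 to 0.24. Each channel taken alone was quantile-normalized, which gives all arrays the same distribution. A general difference in brightness between arrays is therefore not seen in these single-channel changes.

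For the other 9 genes, Cy3 alone gave changes from 0.01 to 0.65, none negative, so that PDK1 was the only one of the 10 with a lower cold mean in that channel. In the reference channel the changes of these 9 genes lay between -0.05 and 0.18. DLAT had the lowest p there (a change of 0.14, exact permutation p = 0.0190, limma adjusted p = 0.564), and its groups overlapped. PDK1 was also the only one of the 10 whose change was negative under each of the 6 scalings tried (the loess ratio, the scanner software's processed signals, no background subtraction, median centring, Cy3 alone and the deposited value table), with changes from -1.58 to -0.54. Its groups overlapped under median centring and in the deposited table.

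**Figure D2:**
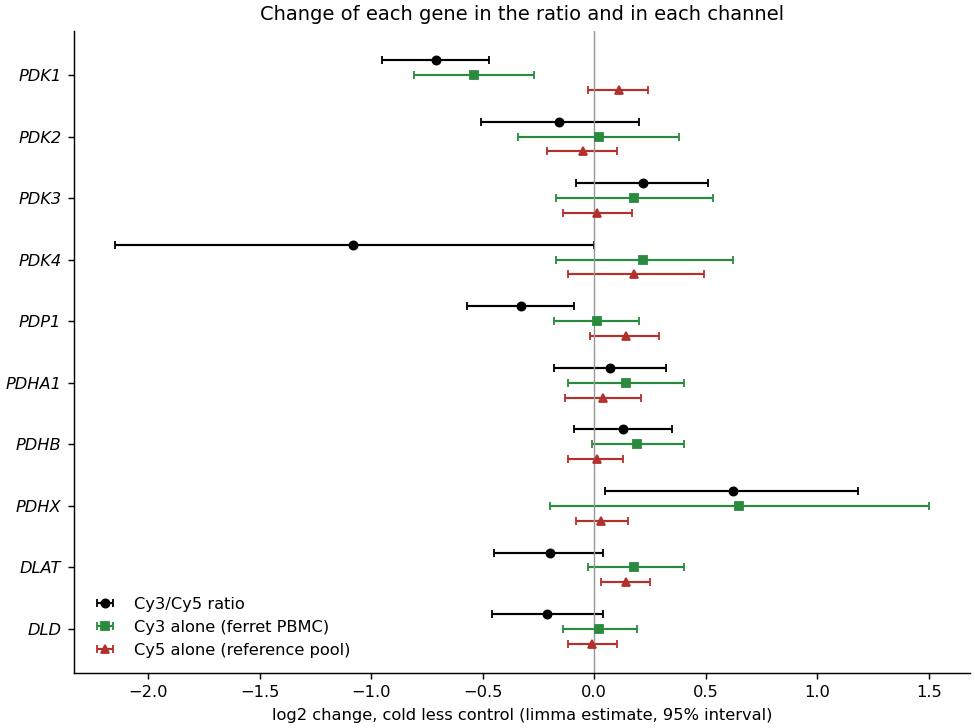
Change in log2 units (cold less control, limma estimate with its 95% interval) of each gene for the Cy3/Cy5 ratio (black circles), Cy3 alone (green squares) and Cy5 alone (red triangles). Each channel alone was quantile-normalized over the arrays. PDK1 is the only gene whose Cy3 interval lies wholly below 0 (-0.81 to -0.27), and PDK4 has a ratio change of -1.08 but a Cy3 change of 0.22.

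PDK2, the kinase found in most tissues, had control values of -0.50, -0.60, -0.77, -1.13, -0.96 and -0.61 and cold values of -1.08, -0.45, -1.01 and -1.14. The groups covered almost the same range, and cold replicate 2 had the highest value of all. The change was -0.16 (standard error 0.16, 95% interval -0.51 to 0.20) with a limma p of 0.348. Without cold replicate 2 it was -0.31, and without control replicate 1, cold replicate 1 or cold replicate 4 it was between -0.10 and -0.08. It turned to 0.08 with the processed signals and to 0.02 in Cy3 alone.

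PDK3, whose product resists inhibition by pyruvate more than the other kinases, had control values of -0.03, 0.19, -0.04, 0.06, -0.56 and 0.20 and cold values of 0.21, 0.23, 0.19 and 0.12. The 4 cold ferrets lay close together (SD 0.04), while control replicate 5 was the lowest control on each of the 4 probes, by a wide margin on 1 of them (-1.16, against -0.07 to 0.22 in the other controls). The change was 0.22 (standard error 0.13, 95% interval -0.08 to 0.51) with a limma p of 0.135. It was 0.11 without control replicate 5, and -0.35 under median centring.

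PDK4 had the widest spread of the 10 genes, with control values of -2.36, -2.42, -3.21, -3.98, -4.56 and -2.51 and cold values of -5.17, -3.22, -4.09 and -4.53. Its spread within groups, 0.88, was larger than that of 99.7% of all genes, whose median was 0.19. Control ferrets averaged -3.18 ± 0.92 (SD, n = 6) and cold ferrets -4.25 ± 0.82 (SD, n = 4), and the groups overlapped. The change was -1.08, with a 95% interval from -2.15 to 0.00, a limma p of 0.0496 and an adjusted p of 0.201.

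The ferret signal of PDK4 lay near background. Of its 4 probes, 2 passed the filter, with Cy3 intensities from 133 to 301. The first of these was well above background on 3 control and 3 cold arrays, and the other on 5 control and 4 cold arrays. The 2 probes left out were so on 1 control and 2 cold arrays each, whereas in the reference channel PDK4 was well above background on all 10 arrays. With Cy3 alone its change was 0.22 and with the processed signals 0.02, so that no direction is given for PDK4.

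PDP1, the catalytic subunit of the calcium-sensitive phosphatase that reactivates the complex, had control values of -0.56, -0.54, -0.49, -0.74, -0.78 and -0.45 and cold values of -1.20, -0.83, -0.69 and -0.97. Cold replicates 1, 2 and 4 lay below all controls, and cold replicate 3 lay above control replicates 4 and 5. Control ferrets averaged -0.59 ± 0.13 (SD, n = 6) and cold ferrets -0.92 ± 0.22 (SD, n = 4). The change was -0.33 (standard error 0.11, 95% interval -0.57 to -0.09), with a limma p of 0.0122 and an adjusted p of 0.122, short of both thresholds.

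PDP1 was represented by 12 probes of 3 target sequences, and all 12 probes had a lower cold mean. The 3 sequences gave changes of -0.39, -0.34 and -0.25, with limma p of 0.00764, 0.0150 and 0.0617. They belong to 1 gene and are not independent of each other. In Cy3 alone the change of PDP1 was 0.01 (95% interval -0.18 to 0.20), and in the reference channel 0.14 (95% interval -0.02 to 0.29). The negative change of PDP1 was therefore not seen in the ferret channel taken by itself.

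**Figure D3:**
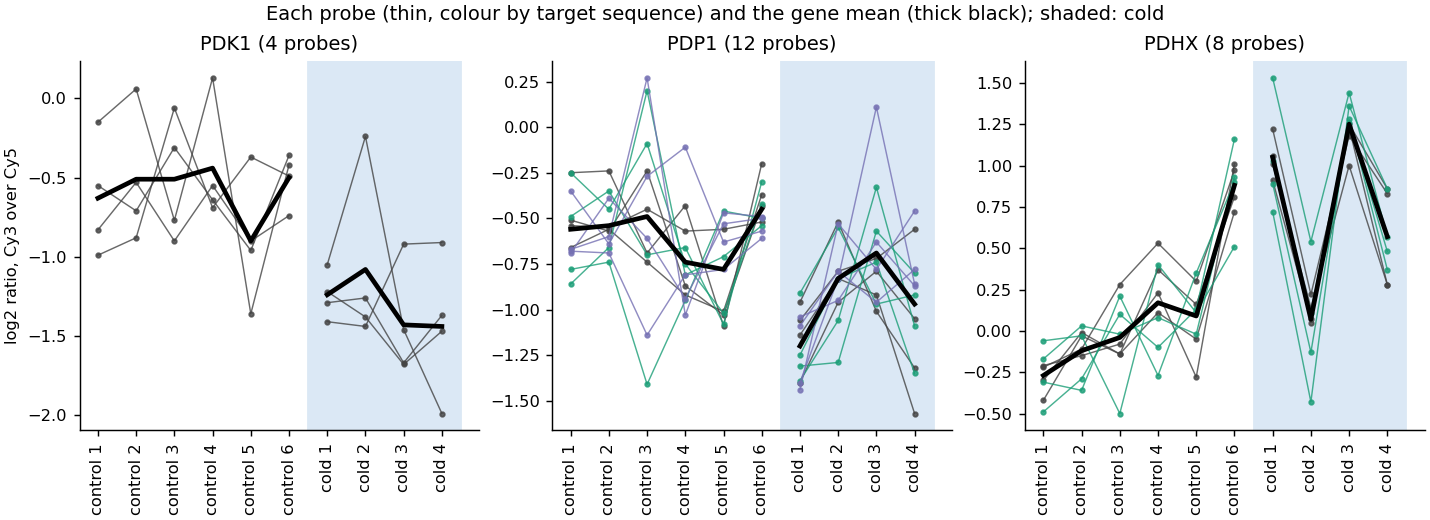
Log2 ratio of each probe (thin lines, coloured by target sequence) and of the gene mean (thick black line) on each array for PDK1 (4 probes), PDP1 (12) and PDHX (8); cold arrays are shaded, and the lines join values of 1 probe, with no order among ferrets. All PDK1 and PDP1 probes have a lower cold mean and all PDHX probes a higher one, and for PDHX all 8 probes put control replicate 6 highest among controls and cold replicate 2 lowest among cold ferrets.

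Of the complex itself, PDHA1 and PDHB encode the alpha and beta subunits of pyruvate dehydrogenase, the enzyme that the kinases phosphorylate. PDHA1 had control values of -0.19, -0.23, -0.30, -0.32, -0.40 and -0.28 and cold values of -0.31, 0.18, -0.41 and -0.33. Cold replicate 2 stood above all other ferrets, and the remaining cold values lay within or just below the control range. The change was 0.07 (standard error 0.11, 95% interval -0.18 to 0.32) with a limma p of 0.555, and it turned to -0.06 without cold replicate 2.

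PDHB had control values of -0.22, -0.33, -0.18, -0.48, -0.36 and -0.38 and cold values of -0.43, 0.04, -0.15 and -0.23. Its change was 0.13 (standard error 0.10, 95% interval -0.09 to 0.35) with a limma p of 0.215. Leaving out cold replicate 1 gave 0.21, and leaving out cold replicate 2 gave 0.05. Both genes had negative changes under median centring, -0.80 for PDHA1 and -0.69 for PDHB, where the median of all genes was itself at -0.43. In the deposited value table, with a median of all genes of 0.01, they were at -0.31 and -0.22.

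DLAT, the acetyltransferase that forms the core of the complex, had control values of -0.14, -0.21, -0.17, -0.32, -0.40 and -0.18 and cold values of -0.77, -0.15, -0.43 and -0.41. Only cold replicate 2 lay within the control range, and the other 3 cold ferrets lay below it. The change was -0.20 (standard error 0.11, 95% interval -0.45 to 0.04) with a limma p of 0.0949. The loss of cold replicate 1 gave -0.10 and that of cold replicate 2 gave -0.30, while Cy3 alone gave 0.18.

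DLD, the lipoamide dehydrogenase that the complex shares with the 2-oxoglutarate and branched-chain dehydrogenases, had control values of -0.48, -0.37, -0.55, -0.65, -0.79 and -0.43 and cold values of -0.99, -0.51, -0.88 and -0.64. The change was -0.21 (standard error 0.12, 95% interval -0.46 to 0.04) with a limma p of 0.0958. It was -0.13 without cold replicate 1, and 0.02 in Cy3 alone. Cold replicate 1 had the lowest ratio of all ferrets for both DLAT and DLD. The reference channel was brighter on 3 of the 4 cold arrays than on any control array, with a median Cy5 intensity of 152, 98 and 92 in cold replicates 1, 3 and 4, of 48 in cold replicate 2 and of 44 to 80 in the controls. Its part in the ratios was not tested.

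PDHX, which tethers DLD to the core, had control values of -0.27, -0.12, -0.04, 0.17, 0.09 and 0.88 and cold values of 1.05, 0.07, 1.25 and 0.57. Cold replicates 1 and 3 lay above all controls, cold replicate 2 lay among them, and control replicate 6 lay with the cold ferrets. Control ferrets averaged 0.12 ± 0.40 (SD, n = 6) and cold ferrets 0.73 ± 0.53 (SD, n = 4). The change was 0.62 (standard error 0.26, 95% interval 0.05 to 1.18) with a limma p of 0.0345, an adjusted p of 0.173 and an exact permutation p of 0.0857.

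The PDHX probes moved together. All 8 probes, of 2 target sequences, had a higher cold mean, with changes from 0.54 to 0.95. Control replicate 6 was the highest control ferret on 8 of the 8 probes, and cold replicate 2 the lowest cold ferret on 8 of the 8. The spread of PDHX within groups, 0.45, was larger than that of 92.5% of all genes. Without control replicate 6 the change was 0.77 (limma adjusted p = 0.120), and without cold replicate 2 it was 0.84 (limma adjusted p = 0.0644), both past the unadjusted threshold of 0.01. It was smaller without cold replicate 3 (0.44), cold replicate 1 (0.51) or control replicate 1 (0.54), with unadjusted limma p of 0.121, 0.101 and 0.0684. PDHX had a positive change under all 6 scalings, down to 0.12 under median centring.

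A ratio within each array removes what shifts all genes of that array alike. The mean log2 ratio of the 5 complex genes averaged -0.25 ± 0.10 over control ferrets (SD, n = 6) and -0.17 ± 0.10 over cold ferrets (SD, n = 4). PDK1 less this mean ran from -0.53 to -0.12 in control and from -1.31 to -0.95 in cold ferrets, with means of -0.33 ± 0.14 and -1.12 ± 0.17 and a difference of -0.79. The groups did not overlap, and they did not overlap under the other 5 scalings either, where the difference lay between -1.10 and -0.78. The mRNA of the kinase PDK1 was therefore lower in cold ferrets relative to the mRNAs of the complex on the same arrays, which does not say that the complex genes did not change.

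Without PDHX in the complex mean the PDK1 difference was -0.66, and the groups again did not overlap under any of the 6 scalings. PDP1 less the mean of all 5 genes ran from -0.42 to -0.24 in control and from -0.91 to -0.57 in cold ferrets, a difference of -0.41. This separation rested on PDHX and on the scaling, since the groups overlapped without PDHX in the mean (-0.30 to -0.14 and -0.72 to -0.22, a difference of -0.28), and, with all 5 genes, overlapped with the processed signals (-0.34) and in Cy3 alone (-0.23). The other kinases overlapped between groups on this measure, with differences of -0.24 for PDK2 and 0.14 for PDK3. The groups of PDK4 overlapped too, and no direction is given for it, since its ferret signal lay near background.

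**Figure D4:**
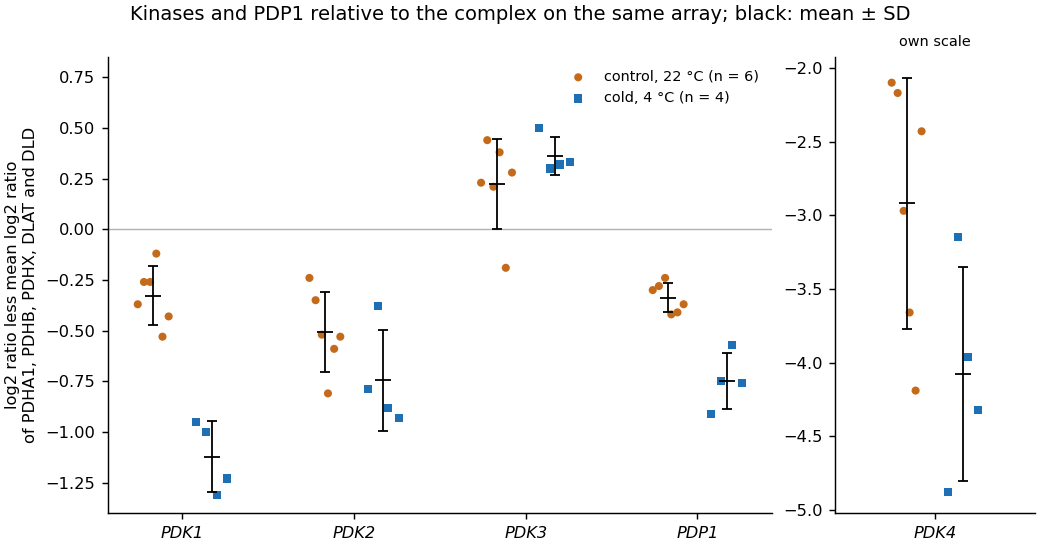
Log2 ratio of each kinase and of PDP1 less the mean log2 ratio of PDHA1, PDHB, PDHX, DLAT and DLD on the same array, for control (circles, n = 6) and cold ferrets (squares, n = 4), with mean ± SD in black; PDK4 has its own scale. The cold values of PDK1 (-1.31 to -0.95) and PDP1 (-0.91 to -0.57) lie below all control values, for PDP1 only with PDHX in the mean, and the groups of PDK2, PDK3 and PDK4 overlap.

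Likeness to PDK1 was measured as the root mean square difference over the 10 arrays, after each gene's own mean was subtracted, among the 8340 other genes with a symbol that is not a bare LOC identifier. FAM219B was nearest (0.136), with a change of -0.57. USP13, which encodes a deubiquitinase, followed (0.138) with a change of -0.72. LDLRAD4, which encodes an inhibitor of TGF-beta signalling, was the third (0.149) with a change of -0.45. As in PDK1, control replicate 5 was the lowest control in each. All 3 were chosen by this measure, which holds the difference between the groups, and no test of it is given. Within the set, PDP1 lay nearest to PDK1 (0.270), with 422 genes nearer, before DLD (0.293) and DLAT (0.303).

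The genes around the complex were taken from 4 lists. Over all 26303 genes, 8.64% passed the unadjusted limma threshold of 0.01, and 5.22% had groups without overlap. Of 14 genes that supply or use pyruvate, 5 were tested, of which 2 had a lower and 3 a higher cold mean (4 and 1 under median centring, 3 and 2 in the deposited log2 values), and 1 passed the unadjusted limma threshold of 0.01. That gene was SLC16A7, a high-affinity transporter of pyruvate and lactate, with control values of -0.31, -0.28, -0.34, -0.66, -0.03 and -0.29 and cold values of -0.03, 0.32, 1.12 and 0.17. Its groups did not overlap, although the nearest pair of ferrets both stood at -0.03. The change of SLC16A7 was 0.71 (standard error 0.20, exact permutation p = 0.00476, limma adjusted p = 0.0930). It was positive under all 6 scalings, with overlapping groups under median centring (0.51, not past 0.01) and in the deposited log2 values (0.86). PC, pyruvate carboxylase, which takes pyruvate to oxaloacetate, had a change of -0.52 (exact permutation p = 0.0286, limma adjusted p = 0.118), negative under all 6 scalings. PKM, the pyruvate kinase, had 0.30 (exact permutation p = 0.0381, limma adjusted p = 0.160), but -0.63 under median centring and -0.14 in the deposited table. The mitochondrial pyruvate carrier genes MPC1 and MPC2 and the lactate dehydrogenase genes LDHA and LDHB were not matched by accession and are not analysed here.

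Of 20 genes for lipoate attachment, further phosphatases and related dehydrogenases, 13 were tested, with 7 lower and 6 higher and a median change of -0.03. Past the unadjusted threshold was 1 of the 13, near the share of all genes (8.64%). Under median centring 10 were lower and 3 higher, and in the deposited log2 values 9 and 4. The gene past the threshold was LIPT2, which attaches the lipoate precursor to its first acceptor protein, with a change of 0.45 (exact permutation p = 0.00952, limma adjusted p = 0.100) and overlapping groups. It was past 0.01 under 2 of the 6 scalings, the loess ratio and Cy3 alone, and the change was 0.16 with the processed signals and 0.15 under median centring. PDP2, the second phosphatase of the complex, had control values from -1.84 to -0.96 and cold values of -2.21, -1.49, -2.17 and -1.79. Control replicates 4 and 5, at -1.84 and -1.82, lay with the cold ferrets. The change of PDP2 was -0.62 (exact permutation p = 0.0524, limma adjusted p = 0.133), negative under all 6 scalings and -0.14 in Cy3 alone. LIPT1, which transfers lipoate to the dehydrogenases, had a change of -0.51 (exact permutation p = 0.0810, limma adjusted p = 0.186), also negative under all 6.

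Of 20 known regulators of the kinase genes, 14 were tested, with 7 lower and 7 higher and a median change of -0.09. Under median centring and in the deposited log2 values 12 were lower and 2 higher, with medians of -0.73 and -0.23 against -0.43 and 0.01 over all genes. The unadjusted threshold was passed by 1 of the 14, near the share of all genes (8.64%), and 5.22% of all genes had groups without overlap. EGLN3, an oxygen-dependent prolyl hydroxylase that marks HIF-1 alpha for degradation and is itself induced by HIF-1, had control values of 0.38, 0.36, 0.52, 0.30, 0.48 and 0.36 and cold values of 1.16, 0.76, 1.91 and 1.14. No cold value reached the controls, and cold replicate 3 was highest. The change of EGLN3 was 0.84 (standard error 0.18, exact permutation p = 0.00476, limma adjusted p = 0.0686), the only one of the 14 past the unadjusted threshold. It was positive under all 6 scalings, but not past 0.01 and with overlapping groups with the processed signals (0.59) and under median centring (0.62). TFAM, the mitochondrial transcription factor, had a change of -0.25 (exact permutation p = 0.00476, limma adjusted p = 0.128) with groups that did not overlap, except in Cy3 alone. HIF1A, the oxygen-regulated subunit of HIF-1, had 0.21 (exact permutation p = 0.424) and -0.46 under median centring. Cold replicate 3 stood at 0.81 for HIF1A and the other cold ferrets between -0.29 and -0.03, against a control mean of -0.16, so that the positive change rested on 1 ferret.

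Of 25 further HIF-1 target genes, 20 were tested, and 14 had a higher and 6 a lower cold mean, with a median change of 0.31 against -0.01 over all genes. The share of all genes with a higher mean was 48.0%. At the unadjusted threshold 2 of the 20 were higher, ALDOA and SLC2A3, against 5.21% of all genes, and 0 were lower, against 3.43%. ALDOA, the glycolytic aldolase, had control values from -1.62 to -0.89 and cold values from -0.74 to -0.30, a change of 0.68 (exact permutation p = 0.00952, limma adjusted p = 0.0736). SLC2A3, the glucose transporter of leukocytes, had control values from 1.03 to 1.37 and cold values from 1.47 to 2.31, a change of 0.58 (exact permutation p = 0.00476, limma adjusted p = 0.0802). SLC2A3 was past 0.01 only in the loess ratio and without background subtraction. ALDOA was past it in these 2, with the processed signals and in Cy3 alone. Of the 20, 19 were higher in Cy3 alone (median 0.44), 15 with the processed signals (0.35) and 14 without background subtraction (0.32). The direction depended on the scaling, since under median centring 19 of the 20 were lower (median -0.46, all genes -0.43), with ALDOA at -0.48 and SLC2A3 at -0.34, and in the authors' log2 values 11 were higher and 9 lower. PDK1, a target of HIF-1 by textbook knowledge, had a change of -0.71 in the loess ratio, -1.58 under median centring and -1.11 in the deposited log2 values. A part of HIF-1 in these changes was not tested.

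**Figure D5:**
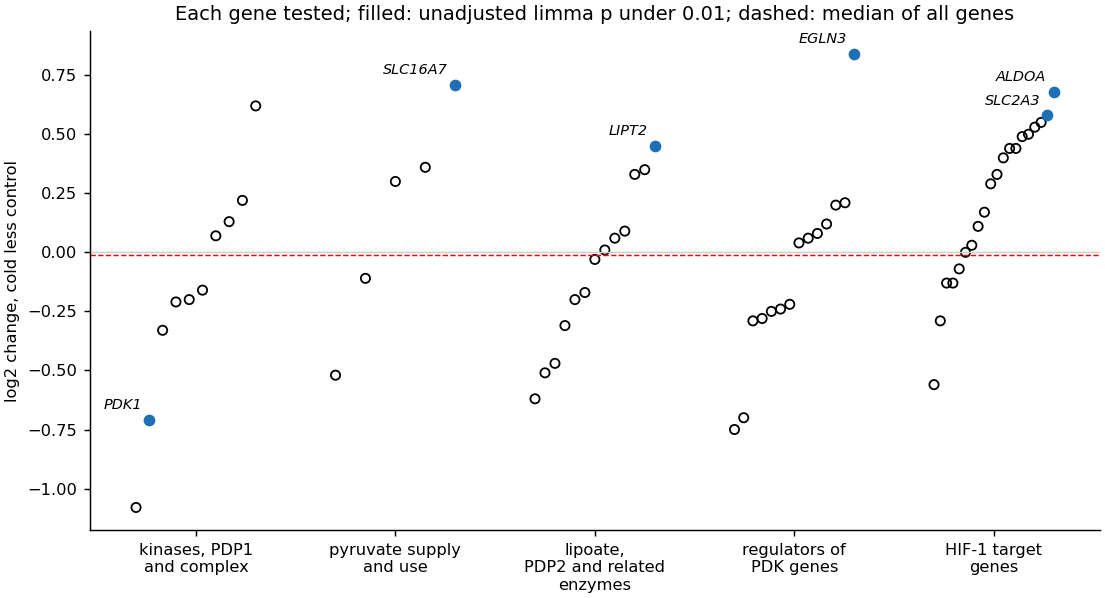
Change in the log2 ratio (cold less control) of each gene tested in the set and in the 4 lists around it, 1 point per gene, filled where the unadjusted limma p is under 0.01; the dashed line is the median of all genes (-0.01). PDK1 is the only filled point below 0, and SLC16A7, LIPT2, EGLN3, ALDOA and SLC2A3 are the filled points above it.

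PBMC are a mixture, and in such bulk RNA fewer cells of a type and less RNA per cell cannot be told apart. The mean log2 ratio of 9 T cell markers ran from 0.08 to 0.38 in control and from -0.84 to 0.05 in cold ferrets, with 8 of the 9 lower and LCK past the unadjusted threshold (-0.75). That of 6 neutrophil markers ran from 0.71 to 1.42 and from 1.70 to 2.01, all 6 higher, with S100A8 (1.10) and S100A9 (1.15) past it. That of 4 erythroid markers ran from 0.18 to 1.12 and from -0.85 to -0.06, all 4 lower, with HBM (-2.56) past it. These 3 scores did not overlap between the groups. Of their single markers, only LCK, S100A8, S100A9 and HBM had groups without overlap, against 5.22% of all genes. The other T cell, neutrophil and erythroid markers each overlapped, so that the scores lean on a few genes. The unadjusted threshold was passed by 8.64% of all genes. The platelet score, of 5 markers, differed by 0.77, as much as the neutrophil score (0.75), but its groups overlapped (-0.05 to 1.25, and 0.74 to 1.77), with 5 of 5 markers higher and GP9 (0.87) and TREML1 (1.27) past the threshold. The monocyte score, of 6 markers, differed by 0.45 with overlap (-0.03 to 0.52, and 0.42 to 1.10), with 5 of 6 higher and CD14 (0.66) and VCAN (1.29) past the threshold. The scores of B cells (-0.10 to 1.18, and 0.38 to 0.83) and NK cells (0.29 to 0.87, and 0.18 to 1.19) overlapped too, with no marker past it. The T cell score was -0.84 in cold replicate 3 and between -0.03 and 0.05 in the other cold ferrets. The part of the cell mixture in the PDK1 change was not tested.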

How the data were processed

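The authors deposited Agilent Feature Extraction 10.7.3.1 intensity files of 10 two-colour arrays, each on its own slide and all scanned on 1 day, and a value table on the log2 scale, 1 value for each target sequence and array. The intensity is the median of a spot and of its local background (the planned mean was not used here). Set against these intensities, the deposited log2 table follows log2 Cy3 less log2 Cy5, so that its direction is Cy3 over Cy5, while the constants per array and per sequence stay unknown. Its medians were 7.933, 7.912, 8.052, 8.081, 8.339 and 7.865 in control replicates 1 to 6 and 8.775, 7.924, 8.387 and 8.122 in cold replicates 1 to 4. The share of spots well above background was 50.41 to 63.47% in Cy3 and 27.03 to 64.03% in Cy5. No probe of the 10 genes was saturated.

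Here, R 4.3.3 with limma 3.58.1 was used. Background was removed by normexp with an offset of 50, and a loess curve (span 0.3, 4 iterations) levelled the log2 ratio of each array. Spots were averaged per probe. Probes with a share of 0.5 or more of their spots well above background in Cy3, on at least 4 arrays, numbered 111051 of 181312, and they were averaged per gene. Of 45343 target sequences, 21104 were named as 12918 genes through the RefSeq table of assembly ASM1176430v1.1, with no coordinates or sequences used, and 15 sequences with under 4 probes were left out. The 24239 sequences without a name were each treated as a gene of their own. Those that passed the filter are counted among the 26303 genes. Groups were compared with lmFit and eBayes over all 10 arrays, with Benjamini-Hochberg adjustment over 26303 genes, and with the exact permutation test for single genes. The code was tested on simulated data. The precision is limited by 6 control and 4 cold arrays. The genes of the set and the lists were chosen with earlier results of these data known. Named were all 10 genes, list genes with an unadjusted p under 0.01 or without overlap, direct partners and regulators of the complex (PDP2, LIPT1 and HIF1A among them), and the 3 genes most like PDK1; PC and PKM were added after their values were seen. PDPR and LIAS, also on the lists, were not matched by accession. Alternatives were the scanner software's processed signals, median centring, no background subtraction, quantile-normalized Cy3 by itself, the deposited table, looser and stricter filters, medians over probes, single target sequences, array weights, the methods' t-test, slide position or replicate number as a block, and the loss of each array in turn.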

Additional observations from a re-analysis of the deposited data

Results flagged for a closer look

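Each of the 10 genes was looked at for 1 ferret that stood apart from its own group, as a gap to the nearest ferret that, divided by the range of the group, was above Dixon's 95% critical value. This made 20 groups of values, and by the construction of that value chance gives such a ferret in about 1 in 20 groups. It was found in 2. For PDK3, control replicate 5 lay at -0.56, far below the other control ferrets, which lay between -0.04 and 0.20. For PDHA1, cold replicate 2 lay at 0.18, far above the other cold ferrets, which lay between -0.41 and -0.31. No cause was tested for either.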

How the results depend on the processing

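The change of PDK1 was negative in all 25 alternatives and past the unadjusted p of 0.01 in each except within slide position 2 (-0.73), a split added after the data had been seen, as were the complex mean without PDHX and the other scalings of the values relative to it; leaving out 1 array gave -0.79 to -0.67, and its adjusted limma p was highest within slide position 2 (0.649) and, over all 10 arrays, in the deposited table (0.232). It passed the adjusted threshold in Cy3 alone, with the filter on all 10 arrays (0.0445), and without control replicate 5 or cold replicate 2. Over all genes, the adjusted threshold was passed by 741 genes in Cy3 alone, 115 with that filter, 5 with slide position as a block, 633 without control replicate 5, 12 without cold replicate 1 and 1272 without cold replicate 2. At the unadjusted threshold 2272 genes (39.7% lower) became 1505 with the processed signals (57.5% lower), 1163 under median centring (81.5%) and 1093 in the deposited table (53.8%), and 1275 (without cold replicate 3) to 3386 (without cold replicate 2) with 1 array left out (56.4% lower without control replicate 5). The methods' t-test called 1726 genes and, after Benjamini-Hochberg, 0.

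The count of set genes at the unadjusted threshold, 1, became 2 without the filter on dim probes, with target sequences as features and with array weights (PDP1 added in each). Over all features, these settings called 2580 of 37142, 2785 of 32400 and 2890 of 26303. With 1 array left out the count was 1 to 3. Without control replicate 5, PDP1 (-0.37) and PDK4 (-1.35, no direction given) were added, with 3352 of 26303 genes called. PDHX was added without control replicate 6 (1815 genes called) or cold replicate 2 (3386), and PDP1 (-0.41) without cold replicate 3 (1275). The count without overlap, 1, became 0 under median centring and in the deposited table, and 1 to 2 with 1 array left out, with DLAT added without cold replicate 2 and PDP1 without cold replicate 3. Signs turned for PDK2 (0.08 with processed signals, 0.02 in Cy3 alone), PDK3 (-0.35 under median centring), PDK4 (0.02 with processed signals, 0.22 in Cy3 alone), PDP1 (0.01), DLAT (0.18) and DLD (0.02) in Cy3 alone, PDHA1 (-0.80 under median centring, -0.31 in the deposited table, -0.02 within slide position 2, and -0.06 without cold replicate 2, the lowest of a range up to 0.13 with 1 array left out) and PDHB (-0.69 and -0.22 in the same 2 tables). The cause was not tested.

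The labels number the replicates of both groups. The deviations of same-numbered ferrets from their group means had correlations of -0.301, 0.543, 0.0963 and -0.189 for numbers 1 to 4. Each cold ferret correlated best with a control of another number. So few values cannot decide whether the numbers pair the ferrets, and the main fit did not use them. With the replicate block the PDK1 change was -0.77, the count over all genes 2459, and the count of set genes 2, with PDHX added (0.80, limma adjusted p = 0.106). PDK4 is limited by a ferret signal near background and by its wide spread within groups (0.88).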
